A study of Homo sapiens with 12 samples.

Results

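Oxidative phosphorylation genes were read out in breast cancer tissue grown alone or beside a second tissue. The members are the protein-coding genes whose symbols name a subunit of respiratory complexes I to V and whose mean level was at least 1 CPM (read counts scaled to a common library total). Of 58735 genes in the table, 103 had such a symbol, 11 of them fell under that level, and 92 were kept: 79 nuclear genes and the 13 protein genes of the mitochondrial genome. Names shared by 153 genes of other types, mostly pseudogenes, were left out. The rule used names and overall level, not the comparison of groups, but it was set with earlier results of these data known. All 92 members passed the low-count filter of the test.

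All libraries came from cells labelled GFP-MDA-MB-231, an established human line of triple-negative breast cancer, marked here with green fluorescent protein. The cells were embedded in fibrin gel and cultured under flow in the AngioPlate, a multiwell plate with perfusable channels, and RNA was taken on day 5 after seeding. In monoculture the cancer tissue had no neighbour. In the hepatic co-culture the neighbour was made of HepG2, a liver cancer-derived line, with 2% lung fibroblasts, and in the cardiac co-culture it was made of iPSC-derived cardiomyocytes (grown from reprogrammed stem cells) and 2% cardiac fibroblasts. Each condition had 4 libraries of the cancer tissue alone, called biological replicates by the labels, which do not say whether they came from separate seedings, so the tests below speak only of variation among the libraries, which may be technical. A single cancer line was used, and no gene was edited or targeted.

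Oxidative phosphorylation passes electrons from NADH and succinate through complexes I to IV to oxygen and uses the resulting proton gradient to make ATP in complex V. Complex I oxidises NADH, complex II (succinate dehydrogenase) links the chain to the citric acid cycle, complex III passes electrons to cytochrome c, and complex IV reduces oxygen. Most subunits are nuclear genes read from separate promoters, whereas the mitochondrial genome is transcribed as long precursors from which the single messages are cut, so the levels of its messages can differ through processing and stability. Cancer cells differ widely in how far they rely on respiration or on glycolysis.

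Depth and cell markers were as follows. Library totals ranged from 26227140 to 42430001 counts, and counts of the 13 mitochondrial genes from 990715 to 1951535 per library. Cardiac replicate 4 lay at -24.9 on the first principal component (28.5% of the variance), inside the monoculture range of -51.1 to -22.3 and outside that of the other 3 cardiac libraries, so cardiac counts are also given without it. That library was picked from these same data for lying near monoculture, so leaving it out favours wider differences from monoculture. Over all genes the cardiac calls went from 862 higher and 581 lower to 1754 and 1624. Calls from that fit are therefore a description and not further support. The 10 markers of the cancer line summed to between 4962 and 5657 CPM in all libraries, but single markers moved: 3 rose (VIM, MSN, LGALS1) and 3 fell (CAV1, EGFR, S100A4) beside hepatic tissue, and CAV1, AXL and S100A4 fell beside cardiac tissue. Of 20 hepatocyte markers 3 passed the low-count filter, with sums of 61.3 to 99.3 CPM in monoculture, 40.5 to 66.9 in the hepatic and 95.7 to 133 in the cardiac co-culture, and the defining marker ALB had at most 14 counts in any library. Of these, 0 were called higher and 1 lower beside hepatic tissue, and 0 in either direction beside cardiac tissue. Of 23 cardiomyocyte markers 5 passed, with sums of 22.2 to 28.5, 26.1 to 27.8 and 31.4 to 35.3 CPM, and TBX5 was at 0 throughout. The cardiac sums thus lay above all monoculture sums. Of these markers 2 were called higher and 1 lower beside hepatic tissue, and 1 higher and 0 lower beside cardiac tissue. MYH6 had 21 and MYL7 had 8 counts in cardiac replicate 4, and both had 0 elsewhere. Of 15 fibroblast markers 9 passed, with sums of 131 to 190, 138 to 289 and 237 to 356 CPM, and POSTN, THY1 and DPT were at 0 throughout. Most of that sum was COL5A1, which did not pass in either comparison, and while COL1A2 and COL3A1 rose beside hepatic tissue, DCN and FBLN1 fell there. Beside cardiac tissue 0 fibroblast markers passed in either direction. Of 8 endothelial markers 5 passed the filter, with sums of 11.6 to 19.0, 18.6 to 28.0 and 15.5 to 18.8 CPM. Among them 2 were called higher and 1 lower beside hepatic tissue, and 2 higher and 0 lower beside cardiac tissue. Over all genes tested, 28% were called beside hepatic and 8.26% beside cardiac tissue. The part of these cells in the results was not tested, and in bulk RNA fewer cells of a type and less RNA per cell cannot be told apart.

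The sequences that the results below turn on are shown first. MT-ATP8 encodes a subunit of the membrane part of complex V and had the lowest counted level of the mitochondrial genes. It lies at chrM:8366-8572 on the plus strand of GRCh38. Its last 46 bases (22.2% of its length), in capitals, are shared with MT-ATP6, which starts at position 8527.
MT-ATP8: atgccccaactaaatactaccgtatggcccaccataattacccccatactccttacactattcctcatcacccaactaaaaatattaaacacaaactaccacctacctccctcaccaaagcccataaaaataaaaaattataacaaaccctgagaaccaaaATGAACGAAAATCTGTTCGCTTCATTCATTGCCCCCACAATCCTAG
Because of that overlap, reads over the last 46 bases cannot be assigned to one of the genes by sequence. Promoters, from 250 bases before to 50 bases after the start (RefSeq, GRCh38.p14), are shown for the 3 members that were lower in both co-cultures, NDUFS1 (chr2:206159395-206159694, minus strand), NDUFA6 (chr22:42090723-42091022, minus strand) and ATP5F1A (chr18:46104178-46104477, minus strand), and for ATP5MC1 (chr17:48892537-48892836, plus strand) and ATP5MC2 (chr12:53676034-53676333, minus strand), which encode the same mature protein and moved in opposite directions in the hepatic co-culture.
NDUFS1: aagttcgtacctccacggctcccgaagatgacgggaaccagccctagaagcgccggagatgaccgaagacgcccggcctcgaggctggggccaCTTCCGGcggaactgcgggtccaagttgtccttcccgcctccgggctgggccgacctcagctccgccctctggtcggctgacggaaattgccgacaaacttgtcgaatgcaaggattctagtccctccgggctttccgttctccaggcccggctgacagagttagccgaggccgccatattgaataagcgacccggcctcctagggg
NDUFA6: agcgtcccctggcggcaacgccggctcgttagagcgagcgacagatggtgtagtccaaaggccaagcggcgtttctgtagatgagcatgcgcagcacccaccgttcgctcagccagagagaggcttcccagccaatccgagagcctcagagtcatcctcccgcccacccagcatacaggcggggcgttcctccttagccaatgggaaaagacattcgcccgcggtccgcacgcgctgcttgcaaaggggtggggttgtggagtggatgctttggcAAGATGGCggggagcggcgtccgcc
ATP5F1A: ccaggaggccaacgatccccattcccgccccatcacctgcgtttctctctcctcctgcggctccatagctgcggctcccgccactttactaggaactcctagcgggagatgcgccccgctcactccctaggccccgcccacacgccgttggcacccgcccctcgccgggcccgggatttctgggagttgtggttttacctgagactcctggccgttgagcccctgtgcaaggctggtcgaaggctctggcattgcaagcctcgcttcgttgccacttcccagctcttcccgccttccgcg
ATP5MC1: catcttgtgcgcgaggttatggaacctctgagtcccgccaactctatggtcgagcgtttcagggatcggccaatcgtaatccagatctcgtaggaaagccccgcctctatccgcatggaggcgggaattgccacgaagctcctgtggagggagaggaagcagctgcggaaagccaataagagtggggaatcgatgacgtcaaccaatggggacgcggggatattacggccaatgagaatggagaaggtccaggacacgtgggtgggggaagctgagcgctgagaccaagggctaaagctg
ATP5MC2: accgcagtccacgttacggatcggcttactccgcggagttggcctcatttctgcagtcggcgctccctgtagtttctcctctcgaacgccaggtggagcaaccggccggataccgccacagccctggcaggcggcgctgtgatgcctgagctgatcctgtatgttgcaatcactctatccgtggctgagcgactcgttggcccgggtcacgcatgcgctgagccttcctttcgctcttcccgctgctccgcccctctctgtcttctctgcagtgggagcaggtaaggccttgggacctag
Capitals mark a match to 1 of 3 motifs known from promoters of respiratory genes and searched on both strands: the palindromic NRF1 motif, CCGGAAG (the ETS factors, such as GABPA) and AAGATGGC (YY1). NDUFS1 held the reverse complement of the ETS motif, NDUFA6 held the YY1 motif, and the other 3 windows held none of these letters. Among 64 nuclear members with a promoter in the RefSeq table, 20 (31.2%) held the ETS motif, 10 (15.6%) the YY1 motif and 4 (6.25%) the NRF1 motif, against 10.7%, 3.03% and 1.36% of 27305 promoters of the same length. The core of the hypoxia response element, ACGTG or GCGTG, was in 39 (60.9%) against 48.4%. A match describes the letters in the window and is not a measured binding site.

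Levels per length placed the mitochondrial messages far above the nuclear ones. Lengths are those of the longest transcript annotated as principal. In monoculture the median member of the mitochondrial genome had 2179.8 CPM per kb and the median nuclear member 49.3 CPM per kb. The highest were the catalytic subunits of cytochrome c oxidase (complex IV), MT-CO1 with 8732.5 ± 514, MT-CO2 with 7484.5 ± 375 and MT-CO3 with 5857 ± 199 CPM per kb (SD, n = 4). MT-ND4 of complex I followed with 5076 ± 295 and MT-ATP6 with 4319 ± 231 CPM per kb. MT-ND6, the only member on the other strand of the mitochondrial genome, had 701 ± 77.0, and MT-ATP8 had 78.5 ± 4.96 CPM per kb. The RNA was poly(A)-selected, and the part of that selection in levels between genes was not tested. MT-CO2 and MT-CO3 were further apart than their SDs, whereas MT-ND3 (2134.5 ± 47.1), MT-ND4L (2179.8 ± 167) and MT-ND2 (2181 ± 291 CPM per kb) did not differ beyond theirs. These SDs describe the spread of a gene among libraries and do not test differences between genes, which share the same libraries. Among nuclear members the median was 37.0 CPM per kb for complex I, 48.8 for complex II, 52.6 for complex III, 97.1 for complex IV and 70.6 for complex V.

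Each co-culture was then compared with monoculture to ask how respiratory genes of the cancer tissue differ beside another tissue. Beside hepatic tissue 14 of 92 members changed, 5 higher and 9 lower, and the 78 others did not pass the test. The members that rose were NDUFB4 and NDUFV2 of complex I, UQCRC2 of complex III, COX7C of complex IV and ATP5MC2 of complex V. Those that fell were NDUFS1, NDUFS6, NDUFA6, NDUFB2, NDUFV3 and MT-ND2 of complex I, MT-CYB of complex III, and ATP5F1A and ATP5MC1 of complex V. The called share, 15.2% of the members, compares with 28% of the 17468 genes tested (2518 higher, 14.4%, and 2374 lower, 13.6%). All hepatic libraries lay above all monoculture libraries for 8 members and below them for 12, beside 15.1% and 15.4% of all genes. The median log2 fold change was -0.01 for nuclear and 0.02 for mitochondrial members, beside 0.01 for all genes tested. With upper-quartile scaling in place of TMM the split turned to 9 higher and 5 lower, and the nuclear median to 0.03, with 0.05 for all genes. Without monoculture replicate 3 or 4 the counts were 3 higher and 4 lower, without monoculture replicate 1 they were 3 and 6, without monoculture replicate 2 or cardiac replicate 3 they were 3 and 9, and without hepatic replicate 3 they were 5 and 5. Over all genes the counts fell too, to 1883 higher and 1777 lower without monoculture replicate 3, 1912 and 1800 without replicate 4, and 2026 and 2016 without replicate 1.

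Beside cardiac tissue 7 members fell and 0 rose. Those that fell were NDUFS1 and NDUFA6 (complex I), SDHA (complex II), UQCRFS1 (complex III), NDUFA4 (complex IV), and ATP5F1A and MT-ATP8 (complex V). At an unadjusted p under 0.05 edgeR called 2 higher and 23 lower, beside 4489 of all 17468 genes in either direction, and DESeq2 called 0 higher and 10 lower after adjustment, beside 1393 and 979 genes. The called share of 7.61% lies beside 8.26% of all genes tested, of which 862 (4.93%) were higher and 581 (3.33%) lower. Cardiac and monoculture libraries did not overlap for 2 members above and 9 below, beside 7.77% and 7.47% of all genes. Fitted log2 fold changes were below 0 for 70 of 92 members (76.1%), beside 49.1% of all genes, with medians of -0.09 for nuclear and -0.04 for mitochondrial members and 0.01 for all genes. With upper-quartile scaling these medians were -0.06 for nuclear members and 0.04 for all genes. Without cardiac replicate 4 the count was 20 lower and 0 higher, 15 nuclear and 5 mitochondrial, beside 9.16% of genes lower and 9.9% higher. It was 0 lower without monoculture replicate 3, cardiac replicate 2 or cardiac replicate 3, 1 without monoculture replicate 1 or 4, and 4 without cardiac replicate 1. The lower calls over all genes were likewise 109, 69 and 104 in the first 3 of these fits, 199 and 170 in the next 2 and 169 in the last, against 581.

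**Figure D1:**
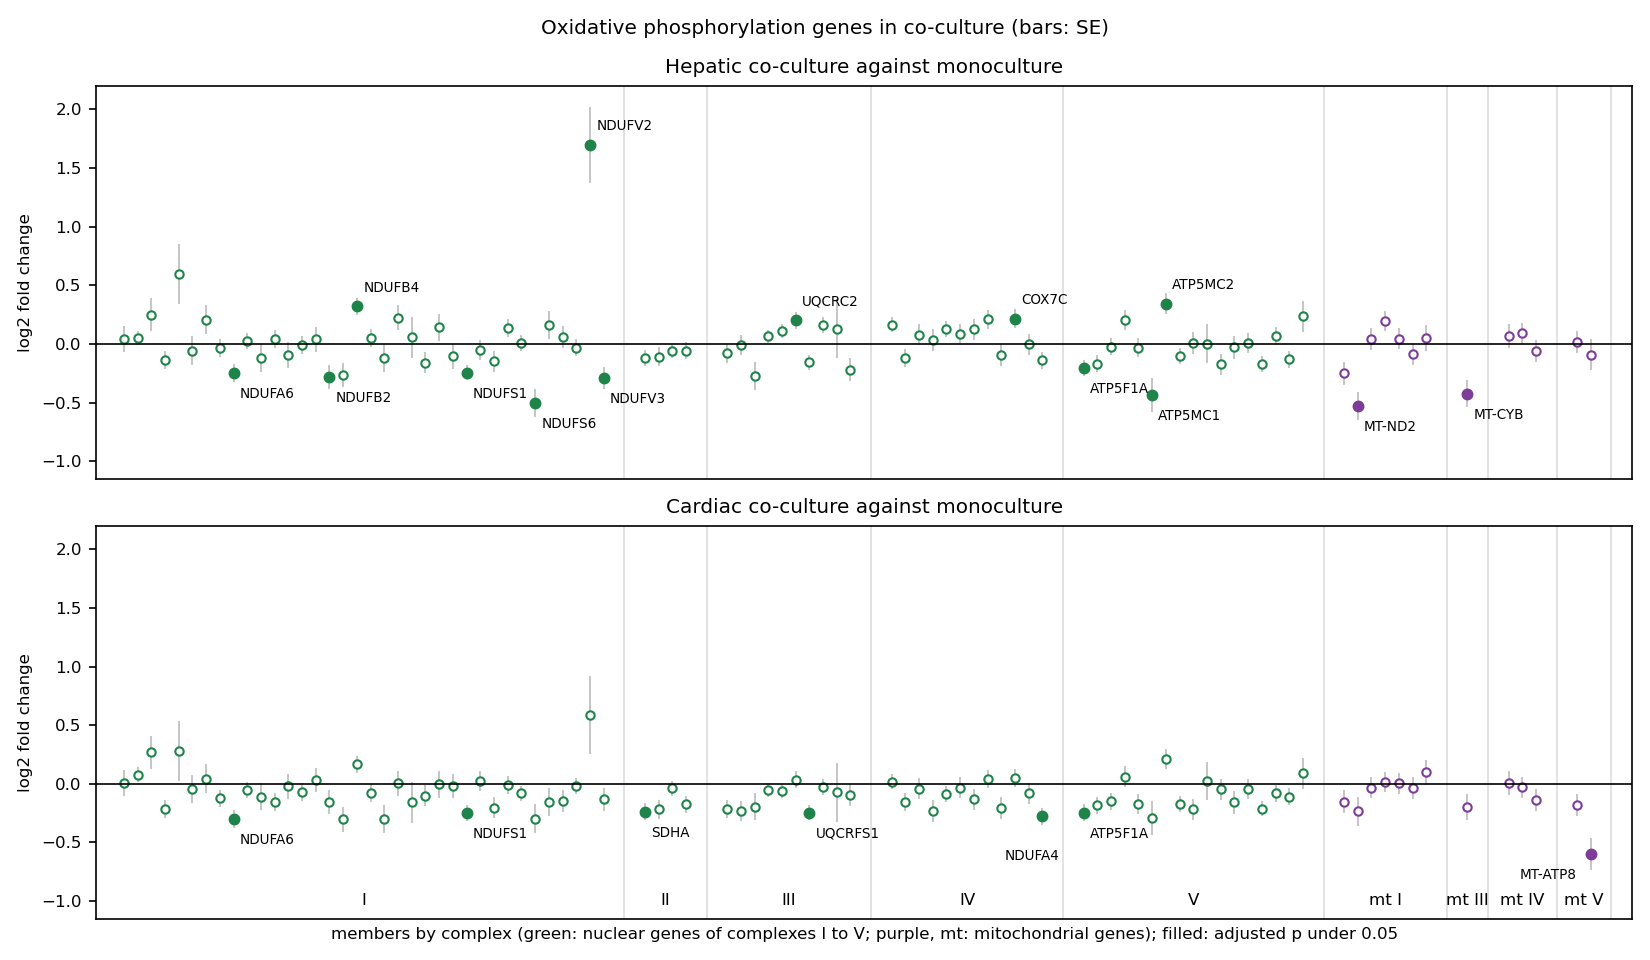
Log2 fold change (y axis, with standard error bars) of each of the 92 members, grouped along the x axis by complex, in the hepatic co-culture (top) and the cardiac co-culture (bottom) against monoculture. Green circles are nuclear and purple circles mitochondrial genes, filled where the adjusted p was under 0.05: 14 members in the top panel, on both sides of 0, and 7 in the bottom panel, all below 0.

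Both co-cultures share the monoculture libraries, so their values are set side by side without a measure of likeness. The members lower in both were NDUFS1, NDUFA6 and ATP5F1A, and 74 members were called in neither. The co-cultures were also compared directly. Cardiac against hepatic tissue called 2 members lower (2.17%, beside 6.18% of all genes tested), NDUFV2 and MT-ATP8, and 0 higher, beside 2.91% of genes lower and 3.27% higher. For 6 members all cardiac libraries lay below all hepatic libraries, beside 5.92% of all genes. Without cardiac replicate 4 neither passed, at -0.51 for MT-ATP8 (edgeR adjusted p = 0.0528) and -1.004 for NDUFV2 (adjusted p = 0.106), and MT-ATP6 was the 1 member called, beside 4.79% of genes called, 2.18% lower and 2.61% higher. At an unadjusted p under 0.05 edgeR called 1 member higher and 19 lower in this comparison, beside 3585 of all 17468 genes in either direction. DESeq2 called 0 higher and 2 lower after adjustment, beside 872 and 737 genes. The nuclear median was -0.11, and 60 of 79 nuclear members were below 0, beside 50.6% of all genes.

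In complex I, the large NADH dehydrogenase, 7 of 36 nuclear members changed beside hepatic tissue (28% of all genes did) and 2 beside cardiac tissue (8.26% of all genes), or 5 without cardiac replicate 4 (19.1%). NDUFS1, the largest core subunit and carrier of several iron-sulfur clusters, had 204, 185, 195 and 192 CPM in monoculture replicates 1 to 4, 146, 169, 171 and 168 in the hepatic co-culture, and 163, 152, 165 and 173 in the cardiac co-culture. All 8 co-culture libraries lay below all 4 monoculture libraries. The log2 fold change was -0.24 ± 0.07 (SE, edgeR adjusted p = 0.0103) beside hepatic and -0.25 ± 0.07 (adjusted p = 0.0301) beside cardiac tissue. The hepatic call held under all 19 alternatives, and the cardiac call was lost in 6 of 19, each of which left out a monoculture or cardiac library.

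NDUFA6, an accessory subunit of the matrix arm, had 43.7, 42.1, 48.5 and 45.9 CPM in monoculture, 38.2, 35.3, 37.2 and 41.2 beside hepatic, and 39.8, 35.9, 37.3 and 33.6 beside cardiac tissue. Again no co-culture library reached the lowest monoculture library. Its log2 fold change was -0.25 ± 0.08 (edgeR adjusted p = 0.0259) and -0.30 ± 0.08 (adjusted p = 0.0285), and each call was lost in 5 of 19 alternatives (highest adjusted p 0.0832 and 0.103). NDUFV1, the core subunit that binds NADH, did not pass and differed by -0.03 ± 0.07 and -0.02 ± 0.07 on the log2 scale.

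Of the 5 other nuclear complex I members called beside hepatic tissue, none passed beside cardiac tissue in the fit of all libraries. NDUFS6, an accessory subunit that binds zinc, had 29.9, 27.5, 39.4 and 31.3 CPM in monoculture and 22.8, 23.1, 18.7 and 25.8 beside hepatic tissue, which lay wholly below, with a log2 fold change of -0.50 ± 0.12 (edgeR adjusted p = 0.00483). Beside cardiac tissue it had 27.1, 24.7, 22.6 and 29.9 CPM, overlapping monoculture (-0.30 ± 0.12, adjusted p = 0.129). NDUFB4, of the membrane arm, had 63.3, 67.6, 62.9 and 64.3 CPM in monoculture, 87.4, 81.2, 77.9 and 75.8 beside hepatic and 79.8, 69.9, 71.5 and 68.4 beside cardiac tissue. Every co-culture library exceeded every monoculture library, with log2 fold changes of 0.32 ± 0.07 (adjusted p = 0.00221) and 0.16 ± 0.07 (adjusted p = 0.139). NDUFV3 (-0.29 ± 0.10, adjusted p = 0.0287) and NDUFB2 (-0.28 ± 0.10, adjusted p = 0.041) fell beside hepatic tissue, but lost the call in 4 and 7 of 19 alternatives. The cardiac against hepatic difference passed for none of NDUFS6, NDUFB4, NDUFV3 and NDUFB2.

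NDUFV2, a core subunit with an iron-sulfur cluster, gave the widest fold of any member from few reads. It had 1.30, 1.40, 0.415 and 0.694 CPM in monoculture, 2.40, 2.81, 3.77 and 3.41 beside hepatic, and 1.36, 1.62, 1.62 and 1.13 beside cardiac tissue. The hepatic libraries lay above all others, with a log2 fold change of 1.70 ± 0.32 against monoculture (edgeR adjusted p = 0.000885), and the cardiac libraries were lower than the hepatic by -1.11 ± 0.32 (adjusted p = 0.0433, lost in 9 of 19 alternatives). These values rest on 18 to 119 counts per library. A pseudogene of the same name held 61.9% of the reads of the pair, so how reads were divided between the copies is uncertain. Of the exon bases of NDUFV2, 28.4% also lie in exons of other genes on the same strand, with the largest overlap in AP005263.1. Reads there can be shared or lost too.

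The remaining nuclear complex I members did not pass in either comparison with monoculture. Their levels ran down to the 2.02 CPM of NDUFA13 in monoculture, and NDUFA13 had the highest fitted value among them beside hepatic tissue, 0.60 ± 0.25 on the log2 scale (edgeR adjusted p = 0.0863). Of the exon bases of NDUFA13, 21.0% also lie in exons of other genes on the same strand, with the largest overlap in AC011448.1. NDUFA12, NDUFB3 and, of those above, NDUFS6 were called lower beside cardiac tissue without cardiac replicate 4, at -0.28, -0.33 and -0.37.

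Complex II, whose subunits are all nuclear, had its 4 members below 0 in both comparisons with monoculture. SDHA, the flavin-bearing catalytic subunit, had 162, 162, 190 and 180 CPM in monoculture, 165, 160, 155 and 160 beside hepatic, and 140, 140, 144 and 166 beside cardiac tissue. Cardiac replicates 1 to 3 lay below every monoculture library and replicate 4 among them. The log2 fold change was -0.24 ± 0.07 (edgeR adjusted p = 0.0471) beside cardiac tissue, lost in 12 of 19 alternatives, and -0.30 without cardiac replicate 4 (adjusted p = 0.00527). Pseudogenes named after SDHA held 9.22% of the reads under that name. SDHB, the iron-sulfur subunit, and the membrane anchors SDHC and SDHD did not pass, with cardiac values of -0.22 ± 0.08, -0.04 ± 0.06 and -0.17 ± 0.07. Summed over the 4 genes, the level was 416, 407, 453 and 434 CPM in monoculture, 401, 406, 397 and 405 beside hepatic, and 376, 365, 370 and 416 beside cardiac tissue. Hepatic libraries lay below monoculture (a difference of -5.97% in the mean), cardiac libraries overlapped it through replicate 4.

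In complex III 1 of 10 nuclear members changed beside hepatic tissue (28% of all genes did) and 1 beside cardiac tissue (8.26%). Without cardiac replicate 4, 2 changed beside cardiac tissue (19.1% of all genes). UQCRFS1, the Rieske iron-sulfur protein, had 115, 107, 108 and 109 CPM in monoculture, 101, 98.2, 93.7 and 102 beside hepatic, and 92.5, 84.9, 92.1 and 101 beside cardiac tissue. Both co-cultures lay below monoculture, with log2 fold changes of -0.16 ± 0.06 (edgeR adjusted p = 0.0768) beside hepatic and -0.25 ± 0.06 (adjusted p = 0.0266, lost in 6 of 19 alternatives) beside cardiac tissue. UQCRC2, a core structural subunit, rose beside hepatic tissue by 0.20 ± 0.07 (adjusted p = 0.0456), but hepatic replicate 1, at 145 CPM, lay among the monoculture libraries of 140 to 149, and the call was lost in 14 of 19 alternatives. Its partner UQCRC1 (0.11 ± 0.06) and CYC1, cytochrome c1 (-0.08 ± 0.08), did not pass there. Beside cardiac tissue CYC1 had -0.21 ± 0.08 (adjusted p = 0.0964), and -0.28 without cardiac replicate 4 (adjusted p = 0.011). Summed nuclear complex III levels in the cardiac co-culture, 840 to 933 CPM, lay below the ranges of monoculture (940 to 975) and of the hepatic co-culture (941 to 995).

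In complex IV, cytochrome c oxidase, 1 of 12 nuclear members rose beside hepatic tissue (14.4% of all genes did). Beside cardiac tissue 1 fell (3.33% of all genes), or 2 without cardiac replicate 4 (NDUFA4 and COX5A, beside 9.16% of all genes). COX7C, a small accessory subunit, had 223, 221, 219 and 212 CPM in monoculture and 296, 238, 236 and 248 beside hepatic tissue, all above monoculture (log2 fold change 0.22 ± 0.08, edgeR adjusted p = 0.0412, lost in 7 of 19 alternatives). NDUFA4, which was named after complex I but is now placed in complex IV, had 179, 160, 165 and 166 CPM in monoculture, 163, 147, 140 and 157 beside hepatic, and 152, 127, 129 and 144 beside cardiac tissue. The cardiac libraries lay below monoculture, with -0.28 ± 0.07 (adjusted p = 0.0269, lost in 5 of 19 alternatives), and the hepatic ones overlapped it, with -0.14 ± 0.07 (adjusted p = 0.158). The direct difference between the co-cultures was -0.14 ± 0.07 (adjusted p = 0.302).

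Complex IV has paired isoforms, one of each pair being typical of muscle, lung or testis, and the cancer tissue used the ubiquitous forms. COX4I1 had 155 to 172 CPM in monoculture, 179 to 201 beside hepatic and 162 to 180 beside cardiac tissue, whereas COX4I2, the form linked to low oxygen in lung, had 0 counts in all 12 libraries. COX6A1 had 41.1 to 43.0 CPM in monoculture while COX6A2, its heart and muscle form, had 0 counts in all 12 libraries. COX7A2 had 95.1 to 109 CPM in monoculture, and the muscle form COX7A1 had 3 to 18 counts per library. COX6B1 had 107 to 120 CPM and the testis form COX6B2 had at most 17 counts. NDUFA4L2, a relative of NDUFA4 known to rise in hypoxia, had at most 9 counts in any library, with sums over 4 libraries of 4 in monoculture, 7 beside hepatic and 16 beside cardiac tissue. The supercomplex factor COX7A2L had 63.4 to 72.4 CPM in monoculture and 75.2 to 79.9 beside hepatic tissue, with no overlap but without passing (0.21 ± 0.08, edgeR adjusted p = 0.0522). COX4I1 likewise had no overlap and did not pass (0.16 ± 0.06, adjusted p = 0.0617). COX8A, an accessory subunit, had 53.1 to 60.4 CPM in monoculture and differed by -0.08 ± 0.09 beside cardiac tissue.

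In complex V, ATP synthase, 3 of 17 nuclear members changed beside hepatic tissue (28% of all genes did) and 1 fell beside cardiac tissue (3.33% of all genes). Without cardiac replicate 4, 5 fell beside cardiac tissue (9.16% of all genes): ATP5F1A, ATP5F1B, ATP5MC1, ATP5MC3 and ATP5PB. ATP5F1A, the alpha subunit of the catalytic head, had 423, 396, 417 and 408 CPM in monoculture, 360, 363, 340 and 361 beside hepatic, and 356, 303, 343 and 385 beside cardiac tissue. No co-culture library reached the monoculture range. The log2 fold changes were -0.21 ± 0.07 (edgeR adjusted p = 0.0325) and -0.24 ± 0.07 (adjusted p = 0.0382), lost in 6 and 7 of 19 alternatives. ATP5F1B, the beta subunit that carries the catalytic sites, had -0.17 ± 0.07 (adjusted p = 0.0877) and -0.18 ± 0.07 (adjusted p = 0.117). Its hepatic libraries, at 661, 712, 663 and 734 CPM, lay below the monoculture libraries, at 807, 750, 782 and 779. Without cardiac replicate 4 ATP5F1B was called lower beside cardiac tissue (-0.25, adjusted p = 0.0153).

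The ring of complex V that turns with proton flow is built from subunit c, which ATP5MC1, ATP5MC2 and ATP5MC3 all encode with the same mature sequence. ATP5MC1 had 56.0, 48.3, 59.2 and 55.8 CPM in monoculture, 45.8, 42.4, 32.8 and 41.0 beside hepatic, and 42.1, 33.2, 44.6 and 59.5 beside cardiac tissue. ATP5MC2 had 111, 121, 123 and 125 CPM in monoculture, 188, 135, 148 and 139 beside hepatic, and 149, 132, 136 and 138 beside cardiac tissue. The hepatic libraries thus lay below monoculture for the first gene and above it for the second. ATP5MC1 changed by -0.44 ± 0.15 (edgeR adjusted p = 0.0373, lost in 6 of 19 alternatives) and ATP5MC2 by 0.34 ± 0.09 (adjusted p = 0.00643, held in all 19). Beside cardiac tissue ATP5MC1 had -0.29 ± 0.15 (adjusted p = 0.23), and -0.46 without cardiac replicate 4 (adjusted p = 0.0093), while ATP5MC2 had 0.21 ± 0.09 (adjusted p = 0.135). The ratio of ATP5MC2 to ATP5MC1 was 1.99 to 2.496 in monoculture and 3.19 to 4.51 beside hepatic tissue. It was 3.54, 3.99 and 3.05 in cardiac replicates 1 to 3 and 2.32 in replicate 4, which lay within monoculture. ATP5MC3, the third copy, did not pass (-0.10 ± 0.07 and -0.17 ± 0.07), but was called lower beside cardiac tissue without cardiac replicate 4 (-0.22, adjusted p = 0.0265). The summed level of the 3 genes overlapped between all groups, at 346 ± 15.99 CPM in monoculture, 353 ± 33.3 beside hepatic and 336 ± 23.4 beside cardiac tissue (SD, n = 4).

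**Figure D2:**
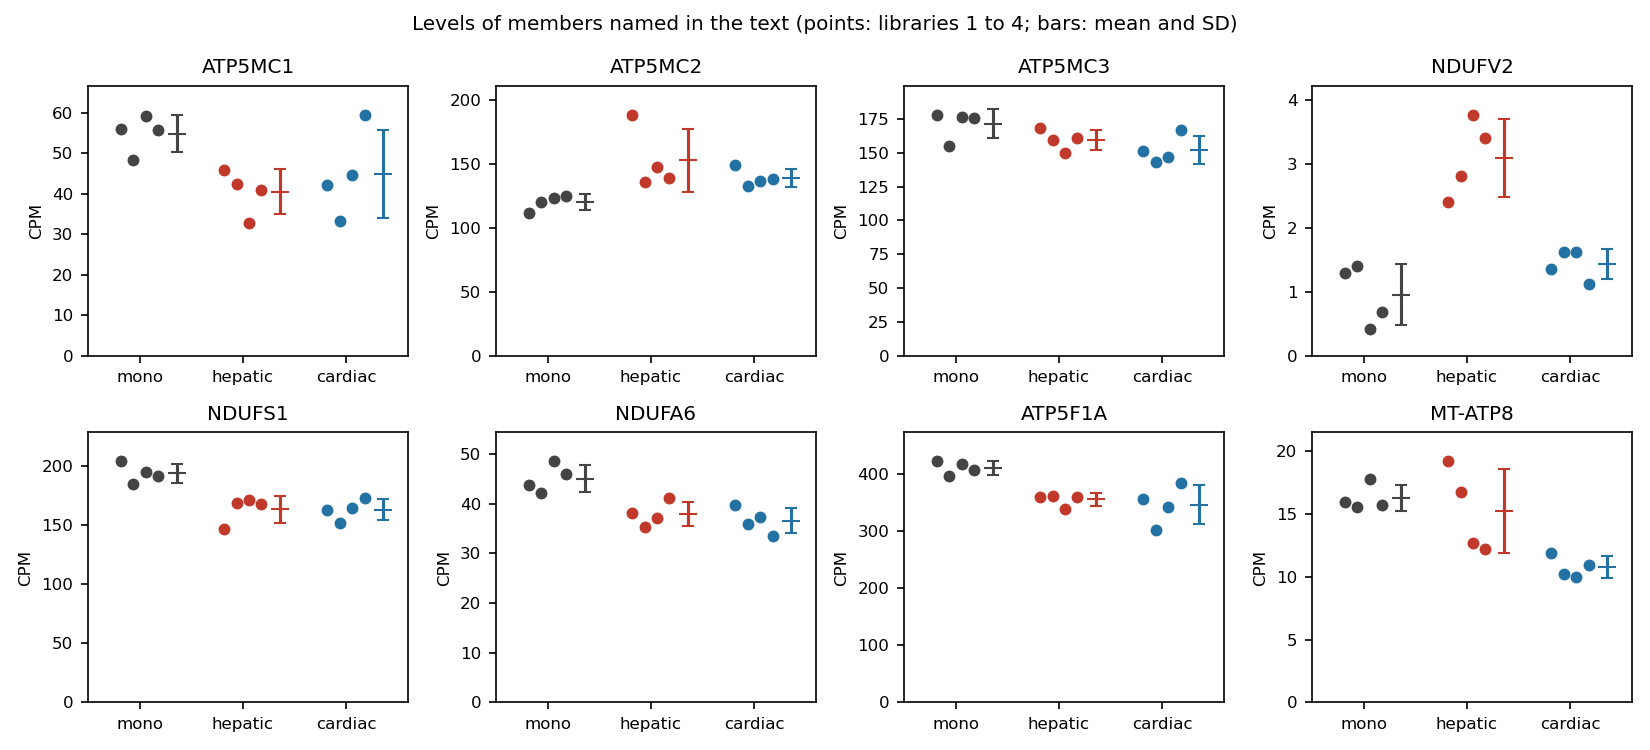
CPM (y axes, from 0) of 8 members by condition (x axis), with 1 point per library in replicate order and the mean with SD beside them. ATP5MC1 falls and ATP5MC2 rises beside hepatic tissue, NDUFS1, NDUFA6 and ATP5F1A lie below monoculture in both co-cultures, NDUFV2 reaches at most 3.77 CPM, and MT-ATP8 is lowest beside cardiac tissue at 9.95 to 11.9 CPM.

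The mitochondrial genes as a whole kept overlapping levels. Their sum was 39370 to 45045 CPM in monoculture, 39038 to 50470 beside hepatic and 37430 to 46557 beside cardiac tissue, and their ratio to the nuclear sum was 6.19 ± 0.38, 6.34 ± 0.60 and 6.46 ± 0.37 (SD, n = 4). Within this sum 2 genes fell beside hepatic tissue. MT-ND2, of the membrane arm of complex I, had 1884, 2228, 2610 and 2369 CPM in monoculture, 1775, 1570, 1402 and 1549 beside hepatic, and 1879, 1744, 1637 and 2467 beside cardiac tissue. MT-CYB, cytochrome b of complex III, had 1888, 2026, 2402 and 2008, then 1753, 1558, 1375 and 1522, then 1738, 1556, 1653 and 2304 CPM in the same order. For both genes all hepatic libraries lay below all monoculture libraries, and cardiac replicate 4 lay within the monoculture range. The hepatic log2 fold changes were -0.53 ± 0.12 for MT-ND2 (edgeR adjusted p = 0.00417) and -0.42 ± 0.11 for MT-CYB (adjusted p = 0.00968), and both calls held under all 19 alternatives. Beside cardiac tissue they were -0.23 ± 0.12 and -0.20 ± 0.11 (adjusted p = 0.237 and 0.277), and -0.37 and -0.34 without cardiac replicate 4 (adjusted p = 0.0121 and 0.0125).

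Shares among the counts of the 13 mitochondrial genes do not depend on the scaling between libraries. The share of MT-ND2 was 4.78% to 5.79% in monoculture, 3.52% to 3.88% beside hepatic and 4.27% to 5.30% beside cardiac tissue. That of MT-CYB was 4.70% to 5.33%, 3.47% to 3.81% and 4.15% to 4.95%. MT-ND4, also of complex I, took 16.1% to 17.1% in monoculture and 17.8% to 19.6% beside hepatic tissue, the opposite direction. The ratio of MT-ND2 to MT-ND4 was 0.290 to 0.360 in monoculture, 0.188 to 0.208 beside hepatic and 0.252 to 0.316 beside cardiac tissue. Each hepatic library was thus below each library of the other groups in that ratio. MT-CYB to MT-ND4 gave the same order, at 0.274 to 0.331, 0.185 to 0.204 and 0.236 to 0.295. The shares of MT-ND1 (3.45% to 3.82% against 2.94% to 3.25%) and MT-ND5 (3.99% to 4.34% against 3.64% to 3.99%) were also lower in every hepatic library than in every monoculture library. For MT-ND5 the ranges almost met, at 3.9944% in the lowest monoculture and 3.9933% in the highest hepatic library. By level MT-ND1 (-0.25 ± 0.10, edgeR adjusted p = 0.0699), MT-ND4 (0.20 ± 0.09, adjusted p = 0.0967) and MT-ND5 (-0.09 ± 0.10, adjusted p = 0.549) did not pass.

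**Figure D3:**
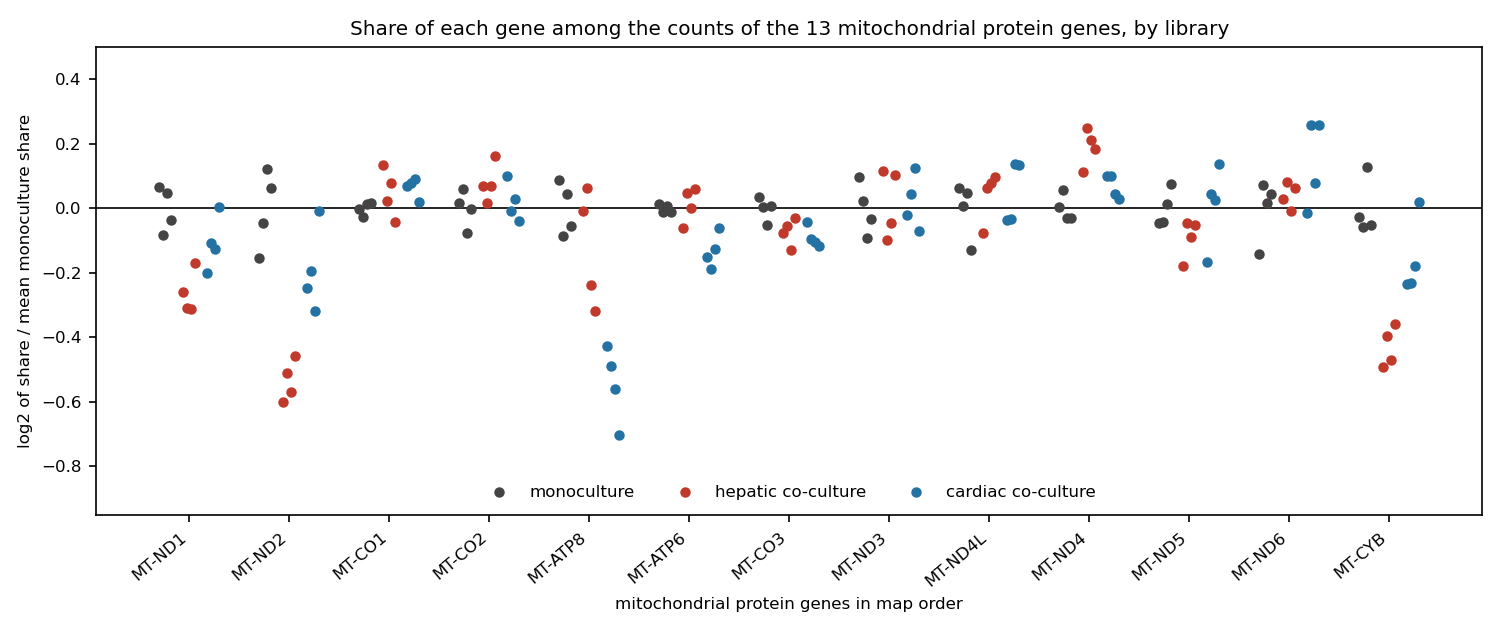
Log2 of each gene's share among the 13 mitochondrial protein genes, relative to the mean monoculture share (y axis), for the genes in map order (x axis) with 1 point per library, grey for monoculture, red for hepatic and blue for cardiac co-culture. MT-ND2 and MT-CYB lie lowest in the hepatic libraries, MT-ND4 lies highest there, and MT-ATP8 lies lowest in the cardiac libraries.

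MT-ATP8, whose sequence is given above, had 15.997, 15.6, 17.8 and 15.7 CPM in monoculture, 19.2, 16.8, 12.7 and 12.2 beside hepatic, and 11.9, 10.2, 9.95 and 10.9 beside cardiac tissue. Every cardiac library, replicate 4 included, lay below every other library. The log2 fold change was -0.60 ± 0.13 against monoculture (edgeR adjusted p = 0.0153) and -0.50 ± 0.14 against the hepatic co-culture (adjusted p = 0.0314). Its call against monoculture was lost without monoculture replicate 3 or cardiac replicate 2 or 3 (adjusted p up to 0.0559), and the call against the hepatic co-culture in 6 of 19 alternatives. MT-ATP6, which overlaps it and shares its transcript, had -0.18 ± 0.09 (adjusted p = 0.234), and -0.27 without cardiac replicate 4 (adjusted p = 0.0218). The share of MT-ATP6 was 6.07% to 6.63% beside cardiac tissue and 6.86% to 6.98% in monoculture, without overlap. MT-ATP8 counts were 0.00526 to 0.00582 of those of MT-ATP6 in monoculture and 0.003545 to 0.00457 beside cardiac tissue. Per kb the monoculture levels were 78.5 CPM for MT-ATP8 and 4319 CPM for MT-ATP6, although both lie on a shared transcript. How reads touching both genes were counted is not recorded, so the MT-ATP8 values need not be the level of its message. The part of such reads in the cardiac difference was not tested.

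The other mitochondrial members changed by less than the test resolved. MT-CO1, MT-CO2 and MT-CO3, the catalytic core of complex IV, had hepatic log2 fold changes of 0.07 ± 0.10, 0.09 ± 0.09 and -0.06 ± 0.09, and cardiac ones of 0.01 ± 0.10, -0.03 ± 0.09 and -0.14 ± 0.09. MT-ND3 (0.04 ± 0.09), MT-ND4L (0.05 ± 0.09) and MT-ND6 (0.05 ± 0.11) did not pass beside hepatic tissue either, nor beside cardiac tissue (-0.03 ± 0.09, 0.01 ± 0.09 and 0.10 ± 0.11). The share of MT-CO1 was 31.1% to 32.0% in monoculture and 32.1% to 33.7% beside cardiac tissue, without overlap, and 30.7% to 34.8% beside hepatic tissue.

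Sums by complex put these genes in the balance of the whole chain. The nuclear sum was 6645 to 7051 CPM in monoculture, 6412 to 7002 beside hepatic and 5958 to 6659 beside cardiac tissue, with a difference of -7.71% in the cardiac mean and the ranges meeting at cardiac replicate 1. Nuclear complex V was 2532, 2387, 2542 and 2444 CPM in monoculture, 2341, 2315, 2210.5 and 2381 beside hepatic, and 2296, 2045, 2163 and 2380.1 beside cardiac tissue. Both co-cultures thus lay below monoculture in this sum, with differences of -6.65% and -10.3% in the mean. The highest library of each, replicate 4 at 2381 and 2380.1 CPM, came close to the 2387 CPM of monoculture replicate 2. Abundant genes weigh most in the sum, such as ATP5F1B with a monoculture mean of 779 CPM. Of the 17 members, 10 were below 0 beside hepatic tissue (median log2 fold change -0.03) and 13 beside cardiac tissue (median -0.15). Nuclear complexes I and IV overlapped between all groups, with means of 1783, 1746 and 1678 CPM for complex I and 1234, 1306 and 1173 CPM for complex IV in monoculture, hepatic and cardiac co-culture. The mitochondrial part of complex III, which is MT-CYB alone, differed by -25.4% beside hepatic tissue, while the nuclear part differed by 2.36%.

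**Figure D4:**
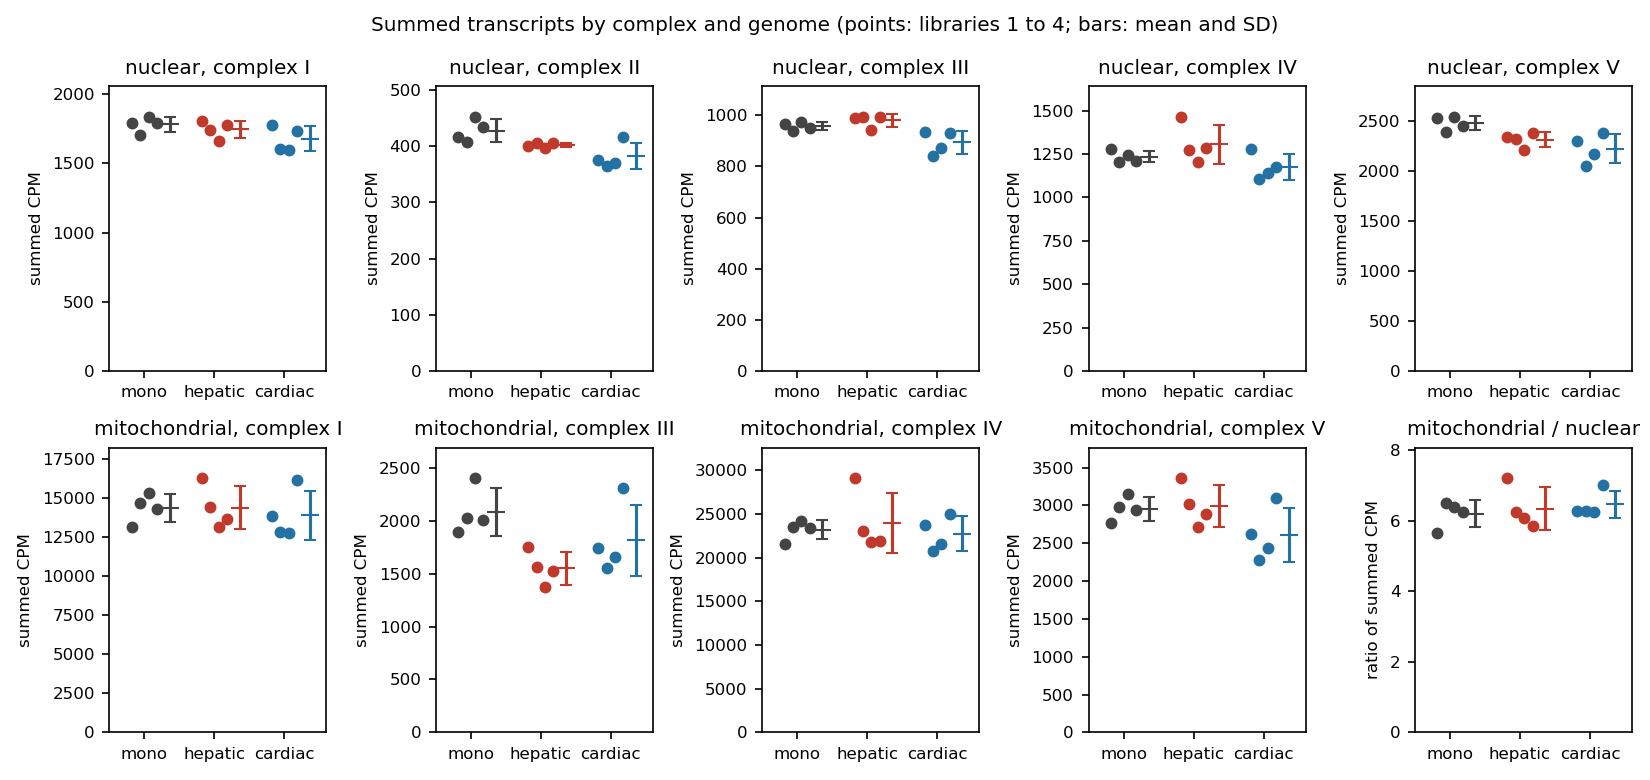
Summed CPM (y axes, from 0) of the members of each complex, nuclear genes in the top row and mitochondrial genes in the bottom row, with the ratio of the mitochondrial to the nuclear sum in the last panel, by condition (x axis). Points are libraries in replicate order with mean and SD beside them: nuclear complex V lies below monoculture in both co-cultures, mitochondrial complex III beside hepatic tissue, and the ratio overlaps.

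Genes that serve the chain were read out as lists beside the members, drawn up with earlier results of these data known. Their counts stand beside 14.4% of all genes higher and 13.6% lower beside hepatic tissue, and 4.93% and 3.33% beside cardiac tissue (9.9% and 9.16% without cardiac replicate 4), and a share near these is not a result about a list. Of 50 assembly factors, which build the complexes but are not part of them, 2 rose and 9 fell beside hepatic tissue and 1 rose and 5 fell beside cardiac tissue (2 and 8 without cardiac replicate 4), with medians of -0.13 and -0.11. COA7, a complex IV factor, fell by -0.92 ± 0.09 (edgeR adjusted p = 1.71e-06) beside hepatic and by -0.49 ± 0.09 (adjusted p = 0.00668) beside cardiac tissue, from 53.7 ± 6.38 to 28.4 ± 2.05 and 38.4 ± 2.79 CPM (SD, n = 4). COA1, which acts in early complex IV and complex I assembly, rose by 0.88 ± 0.09 (adjusted p = 2.6e-06) and 0.32 ± 0.09 (adjusted p = 0.0379), from 73.2 ± 5.50 to 135 ± 17.5 and 91.4 ± 8.99 CPM. For both genes the co-cultures differed, with cardiac against hepatic values of 0.44 ± 0.09 (adjusted p = 0.00662) for COA7 and -0.56 ± 0.09 (adjusted p = 0.000608) for COA1. NDUFAF4, an assembly factor of complex I, fell in both, by -0.53 ± 0.10 (adjusted p = 0.000644) and -0.46 ± 0.10 (adjusted p = 0.0115). The calls of COA7 and NDUFAF4 held under all 19 alternatives in both comparisons, and the cardiac call of COA1 was lost in 7.

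Of 29 genes that maintain, transcribe or process the mitochondrial genome's DNA and RNA, 2 rose and 13 fell beside hepatic tissue (median -0.23) and 0 rose and 4 fell beside cardiac tissue (10 fell without cardiac replicate 4). TFAM, the packaging and transcription factor of mitochondrial DNA, had 165 ± 8.70 CPM in monoculture and 135 ± 15.7 beside hepatic tissue (-0.29 ± 0.08, edgeR adjusted p = 0.00994). POLRMT, the mitochondrial RNA polymerase, rose there by 0.25 ± 0.07 (adjusted p = 0.0101), and TWNK, the replicative helicase, fell by -0.57 ± 0.09 (adjusted p = 0.000265). Among factors that cut or degrade mitochondrial RNA, ELAC2 fell by -0.43 ± 0.08 (adjusted p = 0.00078), FASTKD5 by -0.47 ± 0.09 (adjusted p = 0.000967) and PNPT1 by -0.47 ± 0.12 (adjusted p = 0.00696). LRPPRC, which stabilises mitochondrial messages, fell by -0.20 ± 0.06 (adjusted p = 0.0223, lost in 3 of 19 alternatives), and its partner SLIRP had -0.25 ± 0.09 there (adjusted p = 0.0505) and fell beside cardiac tissue (-0.37 ± 0.09, adjusted p = 0.0233, lost in 5 of 19). The difference between the co-cultures was not called for SLIRP (-0.12 ± 0.09, adjusted p = 0.523). Beside cardiac tissue PNPT1 (-0.49 ± 0.12, adjusted p = 0.021) and ELAC2 (-0.30 ± 0.08, adjusted p = 0.0323) also fell, each call being lost in 6 of 19 alternatives. How these levels bear on MT-ND2 and MT-CYB was not tested.

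Of 27 electron carriers and exchange proteins 0 rose and 7 fell beside hepatic tissue, and 1 rose and 2 fell beside cardiac tissue (7 fell without cardiac replicate 4). CYCS, cytochrome c, the mobile carrier between complexes III and IV, had 172 ± 12.97 CPM in monoculture, 125 ± 18.3 beside hepatic and 124 ± 14.9 beside cardiac tissue, a log2 fold change of -0.47 ± 0.10 in each (edgeR adjusted p = 0.00247 and 0.0134, the second at 0.0522 without cardiac replicate 2). SLC25A4, an ADP/ATP carrier, fell by -0.34 ± 0.08 beside hepatic tissue (adjusted p = 0.00444) and by -0.27 ± 0.08 beside cardiac tissue (adjusted p = 0.0461, lost in 14 of 19 alternatives). Of 18 genes of pyruvate dehydrogenase and the citric acid cycle, which supply the NADH and succinate, 2 rose and 8 fell beside hepatic and 1 rose and 5 fell beside cardiac tissue (1 and 7 without cardiac replicate 4). DLD, the lipoamide dehydrogenase shared by several of these enzymes, fell by -0.41 ± 0.08 (adjusted p = 0.00133) and -0.40 ± 0.08 (adjusted p = 0.0106). IDH3A, of the NAD-dependent isocitrate dehydrogenase, fell by -0.44 ± 0.09 and -0.41 ± 0.09, the cardiac call being lost in 3 of 19 alternatives. IDH2, the NADP-dependent form, instead rose by 0.96 ± 0.11 (adjusted p = 1.24e-05) and 0.60 ± 0.11 (adjusted p = 0.00728).

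Of 10 regulators of mitochondrial biogenesis 1 rose and 2 fell beside hepatic tissue and 1 rose and 0 fell beside cardiac tissue (1 and 1 without cardiac replicate 4). The coactivators PPARGC1B (-0.92 ± 0.21, edgeR adjusted p = 0.00312) and PPRC1 (-0.42 ± 0.09, adjusted p = 0.0017) fell beside hepatic tissue, from 6.36 ± 0.39 to 3.34 ± 0.79 CPM for PPARGC1B. PPARGC1A (-0.29 ± 0.14), NRF1 (0.22 ± 0.11) and ESRRA (-0.08 ± 0.08) did not pass there. Of 8 tested genes linked to hypoxia and respiration 1 rose and 1 fell beside hepatic and 3 rose and 2 fell beside cardiac tissue. Without cardiac replicate 4 these were 4 and 1 beside hepatic and 5 and 2 beside cardiac tissue. Of all genes in that fit, 15.5% were higher and 15.6% lower beside hepatic tissue, and 9.9% and 9.16% beside cardiac tissue. MXI1, a MYC antagonist, rose by 0.78 ± 0.18 (adjusted p = 0.00748) beside hepatic and by 0.68 ± 0.18 (adjusted p = 0.0403, lost in 11 of 19 alternatives) beside cardiac tissue. HIGD1A, a complex IV-associated protein, fell by -0.30 ± 0.08 (adjusted p = 0.0121) and -0.32 ± 0.08 (adjusted p = 0.0268), lost in 1 and 6 of 19 alternatives. Of 9 nuclear-retained and intron-rich transcripts, read as a sign of RNA composition, 6 rose and 1 fell beside hepatic tissue. Beside cardiac tissue 2 rose and 0 fell (4 and 0 without cardiac replicate 4). Their sums were 1394 to 1597 CPM in monoculture, 1767 to 2075 beside hepatic and 1550 to 1802 beside cardiac tissue. The part of RNA composition in the lower levels of either co-culture was not tested.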

How the data were processed

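Poly(A)-selected RNA of 12 cancer-tissue libraries was sequenced. The authors deposited raw read counts per Ensembl gene, 1 column per library. The submitters' processing notes name HISAT2 2.2.1, featureCounts 2.0.6, DESeq2 1.42.0 and GRCh38. The annotation release, the strand setting and the treatment of reads that match several genes are not recorded in the labels or notes, and the labels' protocols describe both a stranded and a non-stranded library without saying which was used. Pseudogene copies and overlapping genes, on the same strand (as for MT-ATP8 and MT-ATP6) or on opposite strands (as for ATP5ME), can therefore share or lose reads. The count of MT-ND6, on the other strand of the mitochondrial genome, can also depend on the strand setting. Gene names came from GENCODE on GRCh38.

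Genes were filtered with filterByExpr, scaled by TMM and fitted in 1 robust quasi-likelihood model over all 12 libraries (edgeR 4.0.16, R 4.3.3), two-sided, with Benjamini-Hochberg adjustment over 17468 genes at a threshold of 0.05. The tested genes held 99.93% of all counts, and the common biological coefficient of variation was 14.91%. Library totals of 26227140 to 42430001 counts set the precision, with at least 18 counts for the weakest member in any library. CPM are TMM-scaled, and sums by complex and shares of mitochondrial counts carry no test. Levels per kb use the longest transcript annotated as principal. A long one, such as the 13566 bases of SDHC, lowers the value per kb. The fit was tested on simulated data.

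Members and gene lists were chosen with earlier results of these data known. Named are all 13 mitochondrial genes, up to 3 nuclear members per comparison, complex and direction by adjusted p, and core subunits and isoforms whatever they did. One gene that this rule names is not reported here. NDUFV3, NDUFB2, NDUFA12, NDUFB3, NDUFA13, ATP5PB, COX5A, the cell markers and the gene list examples that the rule does not cover were named after their values were seen. The same results were recomputed with DESeq2 1.42.0, with scaling by upper quartiles or by DESeq2 size factors, with TMM without mitochondrial genes, without the filter, with a replicate block, on only the 2 groups compared and with each library left out.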

Additional observations from a re-analysis of the deposited data

Results flagged for a closer look

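In 21 of 273 groups of 4 libraries checked, 1 library stood apart from the other 3 by Dixon's criterion, and chance alone sets apart about 1 in 20 groups. In monoculture these were MT-ND6 (308 CPM) and COX6A1 (41.1 CPM) in replicate 1, COX4I1 (155 CPM) and ATP5MC3 (155 CPM) in replicate 2, and MT-ND1 (1702 CPM) and the MT-CYB share (5.33% of mitochondrial counts) in replicate 3. In the hepatic co-culture replicate 1 stood apart for the mitochondrial complex IV sum (29094 CPM), NDUFS1 (146 CPM), NDUFV3 (21.8 CPM), COX6B1 (135 CPM), LRPPRC (193 CPM) and NDUFAF4 (19.6 CPM). Hepatic replicate 3 did so for the nuclear complex III sum (941 CPM), SDHC (131 CPM) and ATP5F1A (340 CPM). In the cardiac co-culture replicate 4 stood apart for MT-ND1 (1708 CPM), MT-ND5 (2112 CPM), NDUFV1 (133 CPM) and SDHA (166 CPM), and replicate 3 for NDUFV3 (22.3 CPM) and SLC25A4 (30.04 CPM).

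Of 67 named genes, 7 differed between the cardiac and the hepatic co-culture by edgeR's test of that difference. On the log2 scale the cardiac value was lower for MT-ATP8 (-0.50), NDUFV2 (-1.11), POLRMT (-0.25) and COA1 (-0.56), and higher for TWNK (0.40), FASTKD5 (0.34) and COA7 (0.44).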

How the results depend on the processing

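Under 19 alternatives no called member or listed gene reversed its direction. With upper-quartile scaling the hepatic counts were 9 higher and 5 lower, against 5 and 9, and all genes 2875 higher and 1927 lower, against 2518 and 2374. With only the 2 groups compared, 1 member was higher beside cardiac tissue and 1 lower in cardiac against hepatic co-culture. Without the low-count filter 2 members were higher in cardiac against hepatic co-culture. Leaving out each library in turn gave 3 to 6 higher and 4 to 13 lower members beside hepatic tissue, 0 to 1 higher and 0 to 20 lower beside cardiac tissue, and 0 to 4 lower in cardiac against hepatic co-culture. The cause was not tested. For the summed CPM of all nuclear subunits, log2 ratio, hepatic co-culture against monoculture, CPM of the nuclear genes' counts alone gave -0.0839, against -0.0279. That alternative also left out the TMM scaling, so the shift cannot be credited to the mitochondrial counts alone. Replicate numbers did not pair the libraries (correlations of deviations between same-numbered libraries -0.08 to 0.11), and the replicate block gave 4 higher and 10 lower members beside hepatic tissue, 0 and 6 beside cardiac tissue, and 0 and 1 in cardiac against hepatic co-culture. Depth limits NDUFV2, with 18 to 119 counts per library, more than any other member.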
